A study of Mus musculus with 4 samples.

Results

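Collagens are the triple-helical proteins of the extracellular matrix, and the genes described here are the mouse collagen chains together with the enzymes that hydroxylate, trim and cross-link them. They were taken by gene name from the arrays: every collagen chain, the lysyl oxidases Lox and Loxl1 to Loxl4, the lysyl hydroxylases Plod1 to Plod3, the prolyl 4-hydroxylase subunits P4ha1 to P4ha3, and the procollagen C-proteinase enhancers Pcolce and Pcolce2. The name rule found 58 genes of 29653 on the array, read by 93 of 39429 probes. One of them, Col4a3bp, is a collagen gene by spelling only: it encodes a ceramide transfer protein and was left out. The remaining 57 genes comprised 44 collagen chains and 13 processing genes, read by 92 probes. These 13 are called enzymes throughout, although Pcolce and Pcolce2 encode enhancers of a protease and not enzymes. Where a gene had several probes, the one with the highest mean signal on the linear scale was used. For 3 members, Col14a1, Col23a1 and Loxl2, the highest mean log2 signal belongs to another probe, whose values are given beside theirs.

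The cells were Swiss 3T3, an established mouse fibroblast line, cultured with wild-type mast cells grown from mouse bone marrow in the presence of stem cell factor at 100 ng/ml. The fibroblasts were either Lpar1+/+ (written WT) or Lpar1-/- (written KO), and the Lpar1 product is a cell surface receptor that responds to lysophosphatidic acid. The KO cells descend from a single-cell clone made with CRISPR/Cas9, so a difference between genotypes cannot be told apart from a difference between that clone and the parental line. Each genotype was sampled at 0 h and at 24 h, with 1 Cy3 array per group, each made from 200 ng of RNA pooled from 3 samples. With no replicates, no test could be made. The labels do not say whether the 0 h fibroblasts had met mast cells; the protocol names reseeding or CD117 beads as ways of separating them.

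In a fibroblast, collagen chains are made in the endoplasmic reticulum, where prolyl and lysyl hydroxylases modify them before the triple helix closes. After secretion, proteases with the help of enhancer proteins remove the C-terminal propeptides of fibrillar collagens, and lysyl oxidases then join neighbouring molecules into stable cross-links. Fibrillar types I, III and V form banded fibrils, type IV forms the sheet of basement membranes, type VI forms beaded microfilaments around cells, and fibril-associated types such as XII and XIV sit on fibril surfaces.

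Values are log2 signals relative to the array's own 75th percentile, so 0 is that percentile, and they are compared between arrays for the same probe only. Where 4 signals stand in a row, those of 0 h come first (WT, then KO) and those of 24 h follow (WT, then KO). Errors are standard errors (SE) from the spot error of the scanner software. The median SE of a difference between a pair of arrays was 0.20 for the members (range 0.20 to 0.36), and it covers neither culture nor labelling. Calls need a signal well above background on both arrays and a difference of at least 2-fold, and they describe these arrays only. Where only 1 array of a pair was well above background, an at-least fold is given against the dim array's floor. Where the gene's own dim signal lay above that floor, the fold is against that signal and is no strict lower bound. Col28a1 at 0 h and Col4a4 at 24 h are among such cases.

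The promoters of the type VI chains Col6a1 and Col6a2, of Pcolce2, and of the fibrillar chains Col3a1 and Col1a2 are shown first: Col6a1, Col6a2, Pcolce2 and Col3a1 were at least 2-fold lower in KO at both times, and Col1a2 is shown as a fibrillar chain that was not. Each is the 250 bases before the gene's start in RefSeq on GRCm38.p6, written 5′ to 3′ on the gene's strand, with capitals marking the TATA box (TATAAA), the CCAAT box and the GC box (GGGCGG), searched on both strands. Col6a1 is chr10:76726045-76726294 (minus strand), Col6a2 is chr10:76623631-76623880 (minus), Pcolce2 is chr9:95637378-95637627 (plus), Col3a1 is chr1:45311288-45311537 (plus) and Col1a2 is chr6:4505368-4505617 (plus).
Col6a1: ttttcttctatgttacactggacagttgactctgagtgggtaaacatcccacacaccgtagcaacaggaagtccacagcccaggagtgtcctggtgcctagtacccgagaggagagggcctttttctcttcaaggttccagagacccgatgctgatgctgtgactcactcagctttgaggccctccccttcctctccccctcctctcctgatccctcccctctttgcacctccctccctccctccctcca
Col6a2: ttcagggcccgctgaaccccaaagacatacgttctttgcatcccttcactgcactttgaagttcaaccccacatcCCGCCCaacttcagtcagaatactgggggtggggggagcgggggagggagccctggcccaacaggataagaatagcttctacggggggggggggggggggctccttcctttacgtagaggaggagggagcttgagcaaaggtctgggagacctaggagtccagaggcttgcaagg
Pcolce2: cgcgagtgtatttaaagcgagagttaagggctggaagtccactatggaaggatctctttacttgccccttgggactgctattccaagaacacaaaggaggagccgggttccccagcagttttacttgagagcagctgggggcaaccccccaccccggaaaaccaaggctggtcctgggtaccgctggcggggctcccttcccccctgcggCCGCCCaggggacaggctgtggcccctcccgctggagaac
Col3a1: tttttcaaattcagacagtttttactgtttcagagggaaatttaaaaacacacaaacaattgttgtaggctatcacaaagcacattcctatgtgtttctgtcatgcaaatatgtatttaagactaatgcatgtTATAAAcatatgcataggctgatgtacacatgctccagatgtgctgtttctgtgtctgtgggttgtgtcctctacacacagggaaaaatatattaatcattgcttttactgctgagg
Col1a2: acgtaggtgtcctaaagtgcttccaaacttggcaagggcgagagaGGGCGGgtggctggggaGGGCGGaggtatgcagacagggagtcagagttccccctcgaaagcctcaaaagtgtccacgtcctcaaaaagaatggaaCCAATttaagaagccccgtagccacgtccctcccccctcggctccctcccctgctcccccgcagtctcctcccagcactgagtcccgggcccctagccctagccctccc

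The Col3a1 window held TATAAA, its first base 117 bases before the start, and was poor in G and C (35.2%). The Col1a2 window held CCAAT at 109 bases and GGGCGG at 188 and 205 bases before the start. The Col6a2 and Pcolce2 windows each held GGGCGG on the opposite strand, at 175 and 40 bases, and the Col6a1 window held none of the 3 motifs. Over 46 promoters of the 43 members that matched the RefSeq table, 63.0% held GGGCGG, 30.4% CCAAT and 13.0% TATAAA. The shares over all 32851 promoters in that table were 32.7%, 33.8% and 12.4%. These are matches of letters, not measured binding sites. The RefSeq starts also place Col4a1 and Col4a2 head to head, with first exons that overlap by 22 bases, whereas 1342 bases lie between the starts of Col4a6 and Col4a5.

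A collagen helix is built of Gly-X-Y repeats, so DNA that codes for it holds a glycine codon, which begins with GG, every 9 bases. Of 70 collagen probes, 4 (5.71%) held at least 4 such GG in a row, against 40 of all 39429 probes (0.101%). They are shown because they lie in helix-coding sequence and because the Col14a1 probe below gives another answer than that gene's brighter probe. The GG of the repeat are in capitals, and positions are on mm9, plus strand: Col14a1 chr15:55347733-55347792, Col15a1 chr4:47283786-47283845, Col16a1 chr4:129756457-129756516 and Col25a1 chr3:130270497-130270556.
Col14a1: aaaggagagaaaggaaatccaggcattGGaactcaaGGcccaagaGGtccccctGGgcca
Col15a1: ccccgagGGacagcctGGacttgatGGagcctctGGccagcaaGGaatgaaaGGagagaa
Col16a1: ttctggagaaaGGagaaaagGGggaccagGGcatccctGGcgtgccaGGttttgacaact
Col25a1: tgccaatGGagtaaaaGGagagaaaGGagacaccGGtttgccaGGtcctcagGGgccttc

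Spots well above background made up 62.1% to 72.7% of the 43020 spots per array, and none was saturated; all 4 arrays lay on 1 slide. Of 20 fibroblast markers that include no member, 18 or 19 were well above background on each array. Lum was near the floor on 3 arrays, and Thy1 read -7.02 and -7.41 on the WT arrays against 3.73 and 4.12 on the KO arrays. The single Lpar1 probe read -3.20, -3.43, -3.15 and -3.61, so it does not separate the genotypes, and its place relative to the edit is not given in the sources used here. The median of 20 mast cell markers was 3.18 (WT) and 4.21 (KO) at 0 h but -4.32 and -4.31 at 24 h. The arrays of both times therefore differ in mast cell RNA as well as in time, and in pooled RNA a smaller share of fibroblasts and less RNA per fibroblast cannot be told apart. The contractile genes Acta2 and Tagln were also higher on the KO arrays, at 6.32 and 6.31 against 3.48 and 3.58 for Acta2. The part of these other differences in the collagen results was not tested.

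All 13 enzymes were well above background on all 4 arrays. Of the 44 collagen chains, 26 were well above background on all 4, 11 on some and 7 on none (Col4a3, Col6a6, Col8a2, Col9a3, Col10a1, Col11a1 and Col24a1). Among cartilage chains, Col2a1 was well above background on KO 24 h only, Col9a1 on WT 0 h only, and Col9a3, Col10a1 and Col11a1 on no array. Col9a2 and Col11a2, also chains of cartilage types IX and XI, were well above background on all 4 arrays, at low signal. From a list of 10 other cartilage markers, 3 or 4 were well above background on each array. The number of members above background was 46, 45, 46 and 42. The 31 members with a mean signal of at least -4 were all measured on all 4 arrays; the other 26 lie nearer the floor, where their values are less certain.

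**Figure D1:**
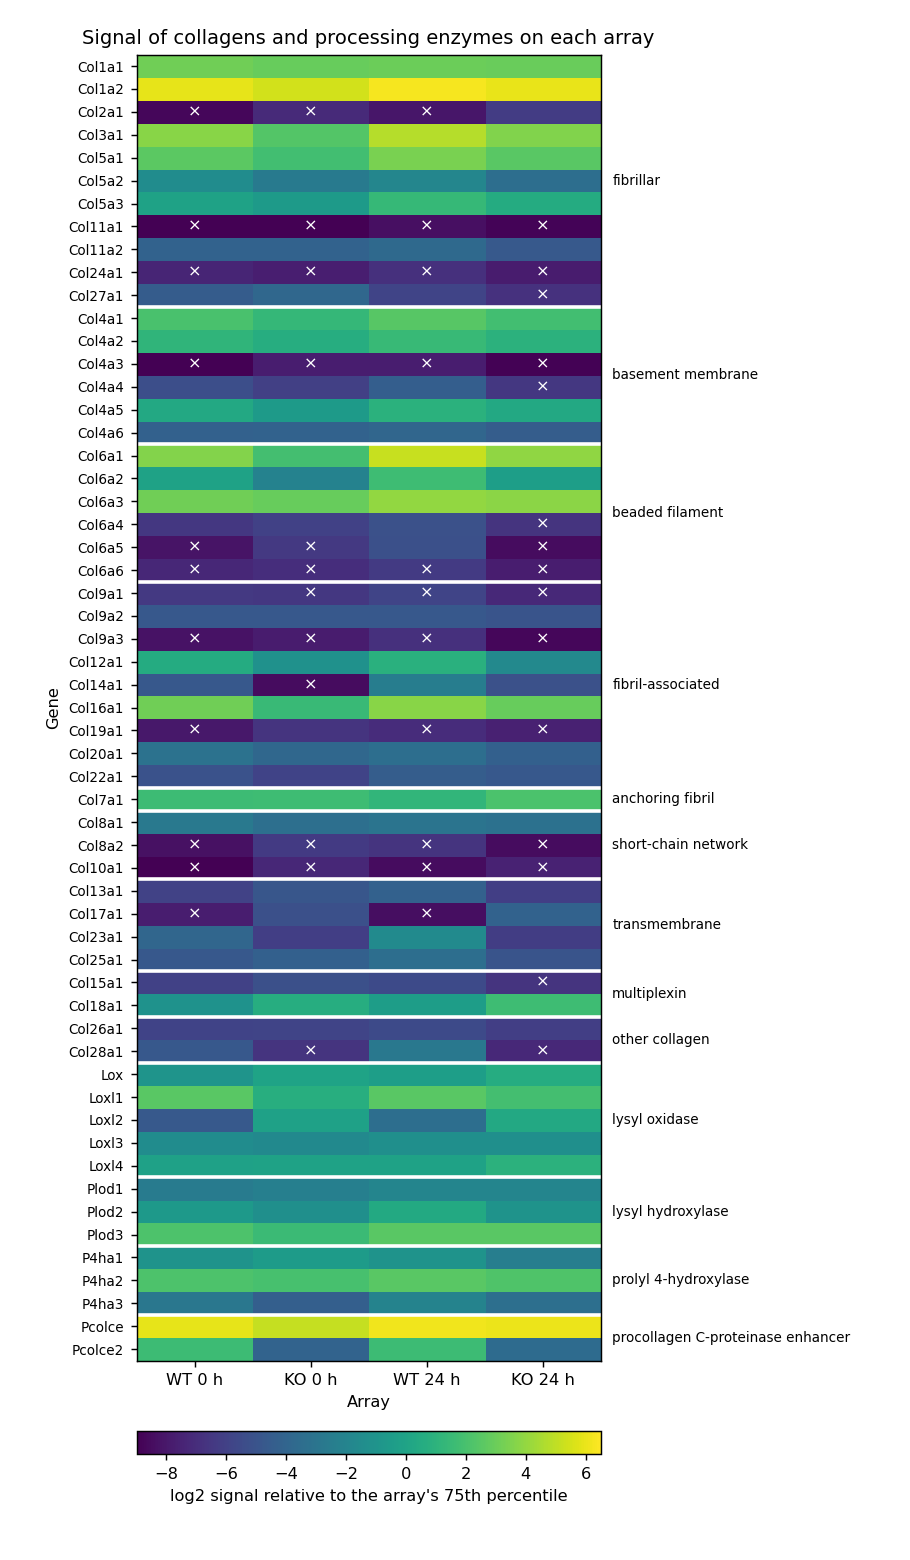
Signal of the 57 genes (rows, grouped by class) on the 4 arrays (columns), as log2 relative to the array's 75th percentile; a cross marks a value not well above background. Colours compare arrays within a row: Pcolce2 is dark and Loxl2 light on both KO arrays, and 7 chains are crossed on every array.

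At 0 h the collagen genes were mostly lower on the KO array. Of the 43 members measured on both arrays, 10 were at least 2-fold lower and 3 were at least 2-fold higher, with a median difference (KO minus WT) of -0.47. Of all genes measured, 4.07% were at least 2-fold lower and 9.33% higher (13.4% in either direction), with a median of 0.06. With arrays scaled on fibroblast genes instead, 9 members were lower and 5 higher and their median was -0.21; with no filter on dim probes 10 were higher and the median was -0.17. Among the 31 brighter members, 9 were lower and 2 higher with a median of -0.64, against 4.88% lower and 5.95% higher over all genes of that brightness. Beside this, all 19 measured mast cell markers were higher on the KO array at 0 h, with a median difference of 0.95, and the fibroblast markers had a median of -0.31.

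At 24 h the picture was similar and included more of the dim chains. Of 40 members measured on both arrays, 14 were at least 2-fold lower and 2 were at least 2-fold higher in KO, with a median of -0.63. Over all genes 12.3% were lower and 5.76% higher (18.0% in either direction), with a median of -0.09. The size of the member count depended on the processing: 9 were lower with normexp (median -0.40), 21 with fibroblast scaling (median -1.04) and 24 with no filter on dim probes. The 31 brighter members again split into 9 lower and 2 higher, with a median of -0.54, against 6.55% lower and 6.28% higher over all genes of that brightness. The other 5 lower members were dim, and among all dim genes 35.1% were lower. The mast cell markers were dimmer by then, with median signals of -4.32 (WT) and -4.31 (KO). Among the 13 measured on both 24 h arrays, 11 were higher in KO and 2 lower, with a median difference of 0.57. At least 2-fold differences were seen for 3 higher and 1 lower. The fibroblast markers had a median difference of -0.01.

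The genotype differences at both times come from separate pairs of arrays. Of the 39 members measured in both, 8 were at least 2-fold lower at both times: Col3a1, Col5a2, Col6a1, Col6a2, Col12a1, Col23a1, P4ha3 and Pcolce2. Under some alternative processing Col5a2, Col12a1, Col23a1 and P4ha3 lost the call at 0 h, and P4ha3 also lost it at 24 h. Col18a1 and Loxl2 were at least 2-fold higher at both times, and Col13a1 was called in opposite directions. Of all 17110 genes measured on the 4 arrays, 2.36% were lower at both times, 2.52% higher at both and 1.27% called in opposite directions. The sign was the same for 31 of 39 members (79.5%), against 58.3% of 17110 genes. For the 31 brighter members the sign was the same for 29 (93.5%), against 63.7% of all genes of that brightness, and the correlation across these members was 0.92 against 0.62. Both time points share the clone and the line, so this describes how alike the pairs are and is not replication.

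**Figure D2:**
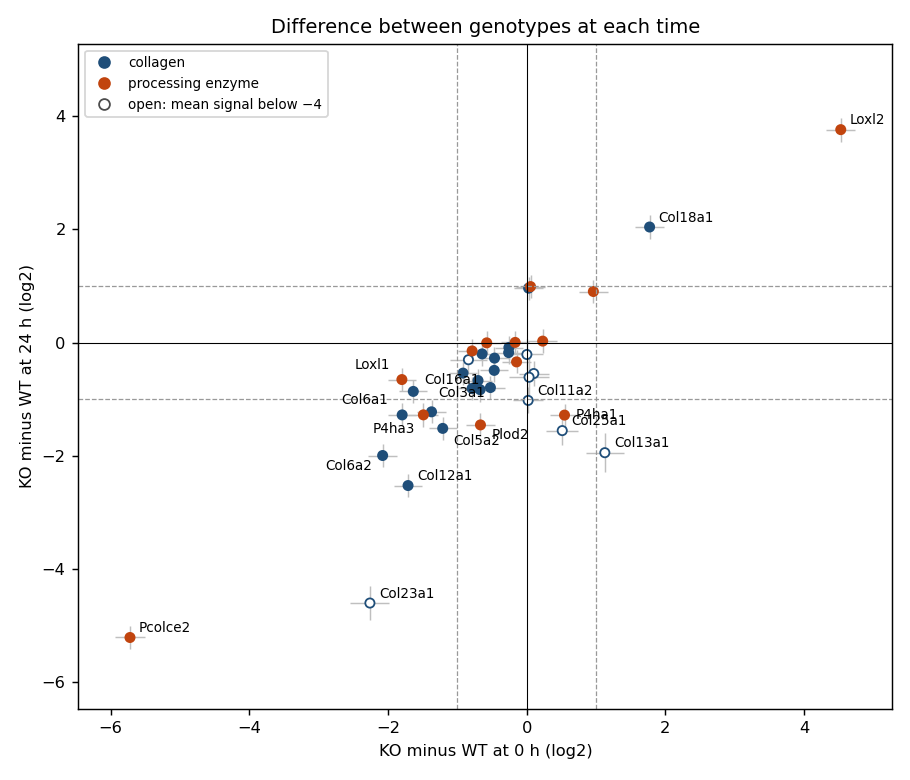
Difference between genotypes (KO minus WT, log2) at 0 h (horizontal axis) and 24 h (vertical axis) for the 39 members measured on all 4 arrays; bars are ±1 SE from spot error, dashed lines mark 2-fold, and open circles are members with a mean signal below -4. Pcolce2 lies lowest on the 0 h axis at -5.72 and Loxl2 highest on both axes, while 8 members lie in the lower left corner beyond 2-fold.

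The chains of type I, the main fibre-forming collagen, differed little between genotypes. Col1a1 read 3.13 (WT) and 2.87 (KO) at 0 h and 3.05 and 2.96 at 24 h, and Col1a2 read 5.90 and 5.44 at 0 h and 6.26 and 5.99 at 24 h. The KO minus WT differences were -0.26 and -0.09 for Col1a1 and -0.47 and -0.27 for Col1a2, each ± 0.20 (SE), and none reached 2-fold. Neither type I chain differed by as much as 2-fold between any pair of arrays.

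Type III, which forms thinner fibrils with type I, was lower in KO at both times. Col3a1 (probe at chr1:45405589-45405648, mm9) read 3.73 (WT) and 2.35 (KO) at 0 h, and 4.77 (WT) and 3.55 (KO) at 24 h. The KO minus WT differences were -1.37 and -1.22 (SE 0.20), or 2.59-fold and 2.33-fold lower. Both KO arrays lay below both WT arrays, and in each genotype the 24 h array was the higher.

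Type V regulates fibril diameter, and its chains shared a lower level in KO but not a common direction over time. Col5a1 read 2.61, 1.82, 3.36 and 2.55. Col5a2 read -1.44, -2.66, -1.90 and -3.42 on the same arrays. Col5a3 read -0.04, -0.57, 1.36 and 0.56. All 3 chains were lower in KO at both times, at least 2-fold for Col5a2 (-1.21 and -1.51) and less for Col5a1 (-0.79 and -0.81) and Col5a3 (-0.52 and -0.79). Over time Col5a3 had differences (24 h minus 0 h) of 1.40 in WT and 1.13 in KO, whereas Col5a2 had differences of -0.46 and -0.76. The time difference of Col5a2 minus that of Col5a3 was -1.86 in WT and -1.89 in KO, both with an SE of 0.29, a contrast of chains that a scaling factor per array does not alter.

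The remaining fibrillar chains were dim. Col11a2 read -4.14, -4.12, -3.68 and -4.70, a difference of -1.02 between genotypes at 24 h that passed 2-fold only just and not with quantile normalization or normexp. Col27a1 read -4.49, -3.81 and -5.85 on the first 3 arrays and was not well above background on KO 24 h, where it was at least 7.38-fold lower than on KO 0 h. Col2a1 was above background on KO 24 h only. Over the 8 fibrillar chains measured at 0 h the median KO minus WT difference was -0.49, and over the 7 at 24 h it was -0.81.

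Type IV chains of basement membranes that were measured on both arrays of a time were mostly a little lower in KO, and none of these reached 2-fold. Col4a1 read 2.04, 1.34, 2.50 and 1.83, and its partner Col4a2 read 1.14, 0.67, 1.43 and 0.94. The KO minus WT differences were -0.70 and -0.67 for Col4a1 and -0.47 and -0.49 for Col4a2. These chains are transcribed from the shared start region described above, and the Col4a1 difference minus that of Col4a2 ran from -0.23 to 0.22 over the 4 comparisons of array pairs (SE 0.29).

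Col4a5 and Col4a6, the head-to-head pair on the X chromosome, kept less close. Col4a5 read 0.34, -0.57, 0.92 and 0.38, and Col4a6 read -4.21, -4.11, -3.91 and -4.46. At 0 h their KO minus WT differences were -0.92 and 0.10, and from 0 h to 24 h in KO they were 0.96 and -0.35. The Col4a5 difference minus that of Col4a6 was thus -1.02 and 1.30 in those comparisons, with SE of 0.29 and 0.30, although quantile normalization, or a mean that includes a second Col4a6 probe not well above background, turned the sign of the Col4a6 difference in both. Col4a4 read -5.28, -6.07 and -4.35 on the first 3 arrays and at 24 h was at least 4.31-fold lower in KO, where it was not well above background.

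Type VI differed by genotype and by time: the chains encoded by Col6a1 and Col6a2 were lower in KO and higher at 24 h, and Col6a3 was far less so. Col6a1 (probe at chr10:76171538-76171597, mm9) read 3.64 (WT) and 1.85 (KO) at 0 h, and 5.19 (WT) and 3.92 (KO) at 24 h. Col6a2 (chr10:76058931-76058990) read -0.08, -2.15, 1.69 and -0.31 on the same arrays. Col6a3, whose product joins both in the type VI molecule, read 3.17, 2.91, 3.97 and 3.79. For Col6a1 and Col6a2 the WT array was the higher at each time and the 24 h array the higher in each genotype, while Col6a3 differed by less than 1 unit between genotypes at each time and between times in each genotype.

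The KO minus WT differences were -1.80 and -1.28 for Col6a1 and -2.08 and -1.99 for Col6a2, against -0.26 and -0.18 for Col6a3. Set within the same arrays, the Col6a1 difference minus that of Col6a3 was -1.54 and -1.10, and the Col6a2 difference minus that of Col6a3 was -1.82 at both times (SE 0.29). A second, dimmer Col6a2 probe gave smaller differences of -0.87 and -1.17. The 24 h minus 0 h differences were 1.55 (WT) and 2.07 (KO) for Col6a1, 1.76 and 1.85 for Col6a2, and 0.80 and 0.88 for Col6a3. The chains that can replace Col6a3 were dim: Col6a5 was above background on WT 24 h only, at least 2.78-fold over KO 24 h, Col6a4 was at least 2.93-fold lower on KO 24 h than on WT 24 h, and Col6a6 was not detected.

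**Figure D3:**
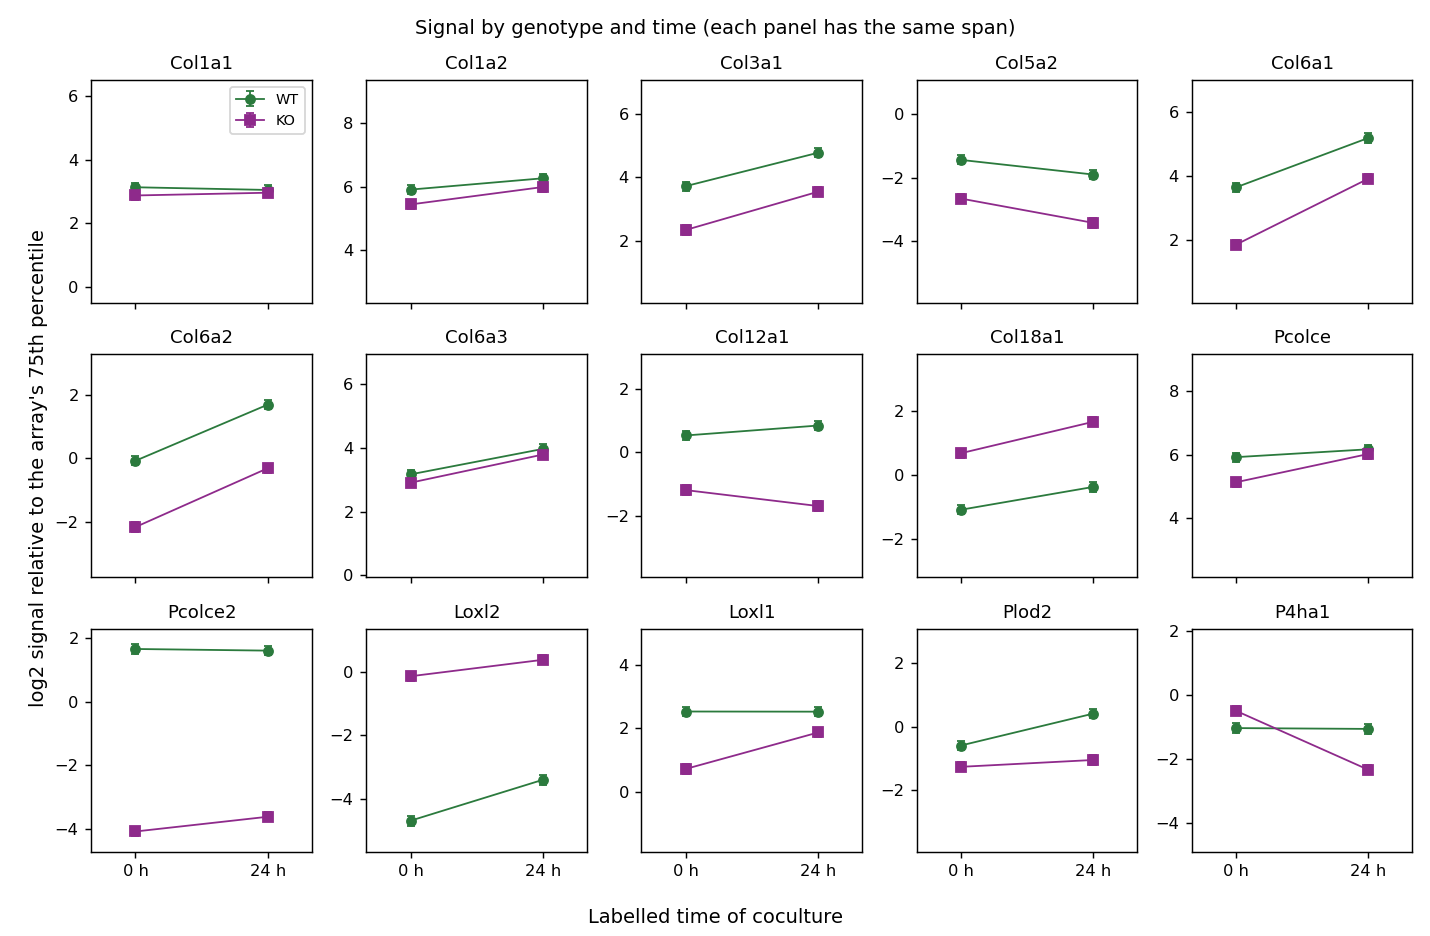
Signal of 15 members (log2 relative to the array's 75th percentile, vertical axes of equal span but different placement) at 0 h and 24 h in WT (circles) and KO (squares), 1 array per point, with bars of ±1 SE from spot error. The WT and KO lines of Col1a1 and Col6a3 nearly meet, those of Col6a1, Col6a2 and Col3a1 run apart and upwards, and those of Pcolce2 and Loxl2 are the farthest apart.

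Fibril-associated collagens coat and link fibrils, and the brighter of them were lower in KO. Col12a1 (chr9:79446895-79446954, mm9) read 0.53 (WT) and -1.18 (KO) at 0 h, and 0.84 (WT) and -1.68 (KO) at 24 h. Its KO minus WT differences were -1.71 and -2.52 (SE 0.20), and both KO arrays lay below both WT arrays. The mean over its probes, which includes one not well above background, was less than 2-fold lower at 0 h. Col16a1 read 3.15, 1.52, 3.74 and 2.88, with differences of -1.64 and -0.86, and a second bright probe gave -1.54 and -1.10. Its other probes, among them the helix probe printed above, were dim and gave -0.13 and -0.77 at 0 h and -0.78 and -0.75 at 24 h. All 4 Col16a1 probes were thus lower in KO at both times, but the 2-fold difference at 0 h was seen on the bright pair of probes only.

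Col14a1, a partner of type I fibrils in tendon and skin, depended on the probe. The probe that stands for it read -4.71 for WT at 0 h, and -2.43 (WT) and -5.15 (KO) at 24 h. It was not well above background on KO 0 h, where it was at least 4.17-fold lower than on WT 0 h. At 24 h it was 6.60-fold lower in KO (-2.72, SE 0.23). This probe was chosen through its high signal on WT 24 h, so the size of that difference rests on the choice. The helix probe printed above, which has the higher mean log2 signal, read -4.65, -4.35, -3.43 and -4.09 and gave only 0.30 and -0.67 for KO minus WT. The probes had the same sign at 24 h and opposite signs at 0 h. Col20a1 and the dim Col22a1 had differences short of 2-fold, at -0.67 and -0.83 for Col20a1 and -0.84 and -0.30 for Col22a1. Col9a2 lay between -4.95 and -4.72 on all 4 arrays, and Col9a1 and Col19a1 were each above background on 1 array.

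Col7a1, which forms the anchoring fibrils beneath epithelia, read 1.64, 1.67, 1.17 and 2.14. The genotypes were alike at 0 h (0.03) and KO was higher by 0.96 at 24 h, just short of 2-fold. The network chain Col8a1 read -2.71, -3.35, -3.02 and -3.22 and reached 2-fold in no comparison.

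Transmembrane collagens, which are held in the cell membrane and can be shed, were dim but held large differences. Col23a1 (chr11:51394105-51394164, mm9) read -3.87 (WT) and -6.13 (KO) at 0 h, and -1.57 (WT) and -6.17 (KO) at 24 h. It was 4.80-fold lower in KO at 0 h (-2.26, SE 0.28) and 24.2-fold lower at 24 h (-4.60, SE 0.30), the 29th lowest of 17285 genes. The KO values sat together near the floor, and WT was 2.30 higher at 24 h than at 0 h. The probe with the highest mean log2 signal gave -1.79 at 0 h and -3.67 at 24 h, and the other one -0.14 and -1.99. With normexp the Col23a1 difference was -0.83 at 0 h, short of 2-fold, and -2.49 at 24 h.

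Col17a1, a component of hemidesmosomes, was above background on the KO arrays only, at -5.24 and -4.13, and was at least 4.33-fold higher in KO at 0 h and at least 4.10-fold higher at 24 h. Col13a1 read -5.96, -4.83, -4.20 and -6.14. Its KO minus WT difference was 1.13 (SE 0.28) at 0 h but -1.94 (SE 0.34) at 24 h. Col25a1 read -4.76, -4.25, -3.40 and -4.96, with differences of 0.51 and -1.55, and a second measured probe gave 1.05 and -1.60. With normexp background correction neither Col13a1 nor Col25a1 reached 2-fold in any of these comparisons, and dim genes in general were lower on KO 24 h.

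Col18a1, a basement membrane multiplexin and the source of endostatin, was the only collagen measured on all 4 arrays that was at least 2-fold higher in KO at both times. It (chr10:76515790-76515849, mm9) read -1.10 (WT) and 0.68 (KO) at 0 h, and -0.38 (WT) and 1.66 (KO) at 24 h. The differences were 1.77 and 2.04 (SE 0.20), and a second probe gave 1.57 and 2.15. Both KO arrays lay above both WT arrays. The related Col15a1 was dim, higher by 0.81 in KO at 0 h and at least 2.29-fold lower in KO at 24 h. Col28a1, a type with von Willebrand factor A domains, was above background on the WT arrays only, at -4.73 and -2.79, and was at least 3.79-fold and at least 14.9-fold lower in KO at 0 h and 24 h. Col26a1 lay between -6.12 and -5.51.

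Of the procollagen C-proteinase enhancers, Pcolce2 was far lower on the KO arrays and Pcolce was not. Pcolce2 (chr9:95595436-95595495, mm9) read 1.65 (WT) and -4.07 (KO) at 0 h, and 1.60 (WT) and -3.61 (KO) at 24 h. It was 52.8-fold lower in KO at 0 h (-5.72, SE 0.21), the 6th lowest of 20304 genes, and 37.0-fold lower at 24 h (-5.21), the 17th lowest of 17285. The values within a genotype lay within 0.46 of each other. Pcolce2 was read by a single probe, and with normexp its KO minus WT differences were -4.85 at 0 h and -4.18 at 24 h. Pcolce, which acts on the same C-propeptide step, read 5.92, 5.13, 6.17 and 6.02, and its KO minus WT differences were -0.79 and -0.15. The protease both enhance, Bmp1, was no member and read 2.71, 1.62, 3.01 and 2.20.

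The lysyl oxidases, which start collagen and elastin cross-linking, went in different directions. Loxl2 (chr14:70095254-70095313, mm9) read -4.67 (WT) and -0.15 (KO) at 0 h, and -3.39 (WT) and 0.37 (KO) at 24 h. It was 23.1-fold higher in KO at 0 h (4.53, SE 0.21) and 13.6-fold higher at 24 h (3.76). One further probe gave 4.74 and 3.89, and the probe with the highest mean log2 signal gave 1.95 and 2.21, so the direction was shared by all 3 probes and the size was not. Both KO values lay above both WT values on each of them.

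Lox itself read -0.96, 0.00, -0.30 and 0.60, and was higher in KO by 0.96 and 0.90, short of 2-fold; a second probe gave 1.24 and 0.96. Loxl1, best known from elastic fibres, read 2.53, 0.73, 2.52 and 1.87. It was 3.48-fold lower in KO at 0 h (-1.80) and by -0.65 at 24 h, and a second probe gave -1.35 and -0.13. The WT arrays were alike, and KO 24 h lay 1.14 above KO 0 h. Loxl4 read -0.11, -0.05, -0.06 and 0.93, so that KO 24 h alone was higher, by 0.99 against WT 24 h. Loxl3 lay between -1.65 and -1.29.

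The hydroxylases were less divided. Plod2, the lysyl hydroxylase of the collagen telopeptides, read -0.59, -1.26, 0.41 and -1.04. Its KO minus WT differences were -0.67 and -1.45, and the 24 h signal exceeded the 0 h signal by 1.00 on the WT arrays and 0.22 on the KO arrays. Plod1 read -2.56, -2.33, -1.97 and -1.94 and Plod3 read 2.15, 1.57, 2.54 and 2.54, and neither reached 2-fold between any pair compared. Plod2 was thus the lysyl hydroxylase that separated the genotypes at 24 h.

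P4ha1, a catalytic subunit of prolyl 4-hydroxylase, read -1.04, -0.49, -1.06 and -2.34. KO 24 h stood below the other arrays: the genotype difference was 0.54 at the earlier time and -1.28 at the later, and a second probe gave 0.57 and -1.74. P4ha2 read 2.15 and 2.55 on the WT arrays, with KO minus WT differences of -0.15 and -0.34, and did not reach 2-fold. P4ha3 read -2.84, -4.34, -2.08 and -3.36 and was lower in KO by -1.49 and -1.28, against -0.53 and -1.15 on a second probe. At 24 h all 3 subunits were lower in KO, 2 of them at least 2-fold on the main scale, whereas with normexp neither P4ha1 nor P4ha3 reached 2-fold.

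**Figure D4:**
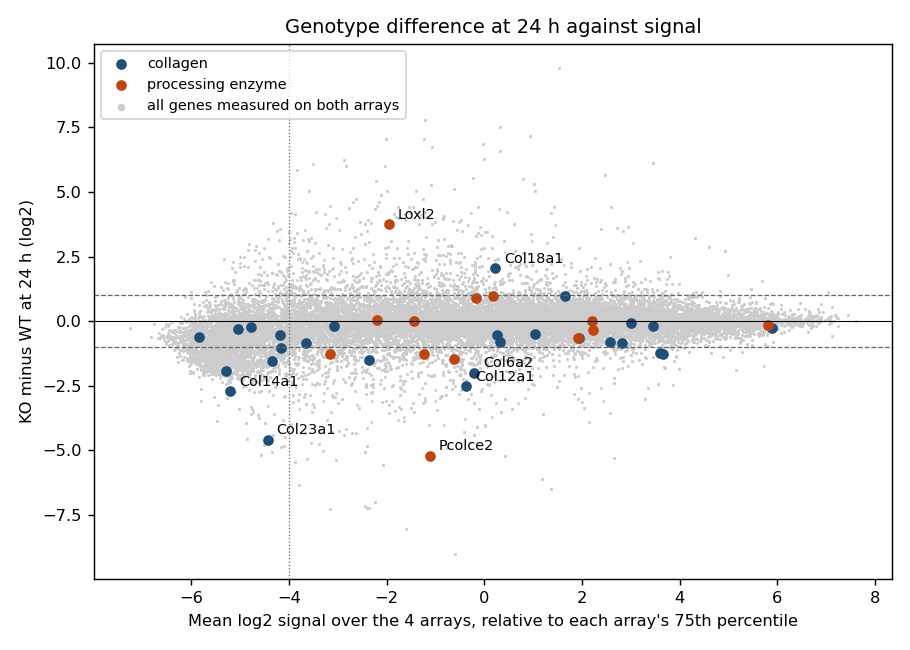
Difference between genotypes at 24 h (KO minus WT, log2, vertical axis) against the mean signal over the 4 arrays (horizontal axis) for all genes measured on both 24 h arrays (grey) with collagens (blue) and enzymes (orange); dashed lines mark 2-fold and the dotted line a mean signal of -4. Left of the dotted line the grey cloud lies below 0, and right of it most collagens lie below the centre of the cloud, with Pcolce2 at -5.21 and Loxl2 at 3.76 near its edges.

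Over time most members were higher at 24 h in WT. Of 45 members measured on both WT arrays, 12 were at least 2-fold higher at 24 h and 1, Col27a1, was at least 2-fold lower, with a median of 0.53. Over all genes 15.8% were higher and 5.57% lower (21.4% in either direction), with a median of 0.28. Of the 12, 6 were brighter members: Col3a1, Col5a3, Col6a1, Col6a2, Plod2 and Loxl2; over all genes of that brightness 4.35% were higher and 6.52% lower, and the 31 brighter members had a median of 0.41 against 0.19. The other 6 were dim chains, and of all dim genes measured 45.8% were higher. With normexp 6 members were higher and none lower. Among the brighter ones, Col3a1, Plod2 and Loxl2 did not reach 2-fold with normexp (0.80, 0.98 and 0.68). Plod2 passed 2-fold only just on the main scale (1.00). Col3a1 and Plod2 also fell short with quantile normalization and with fibroblast scaling. Loxl2 also fell short on its probe with the highest mean log2 signal. In the same comparison the mast cell markers had a median of -7.23 and the fibroblast markers 0.52, so the members' median lies beside that of the fibroblast list.

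In KO, 8 of 40 members were at least 2-fold higher at 24 h and 2, P4ha1 and Col13a1, at least 2-fold lower, with a median of 0.48. Over all genes 9.48% were higher and 10.9% lower (20.4% in either direction), with a median of 0.23. The 8 were Col3a1, Col5a3, Col6a1, Col6a2, Col16a1, Col17a1, Col22a1 and Loxl1. Scaling on fibroblast genes turned the median of the members to -0.32, with 2 higher and 10 lower, and turned the sign of 14 of the 40 members, from 29 positive to 15. Col6a1 and Col6a2 remained at least 2-fold higher, and P4ha1 and Col13a1 at least 2-fold lower, on that scale. The mast cell markers had a median of -7.88 here and the fibroblast markers 0.94.

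Col3a1, Col5a3, Col6a1 and Col6a2 were the members at least 2-fold higher at 24 h in both genotypes, and none was lower in both; over all genes 2.07% were higher and 4.43% lower in both. The sign was the same in both genotypes for 27 of 39 members (69.2%), near the 70.0% of all genes. Col3a1 was higher by 1.05 in WT and 1.20 in KO. With quantile normalization Col3a1 did not reach 2-fold in either genotype. Col6a1 and Col6a2 reached it in both genotypes under every alternative that gave a value.

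**Figure D5:**
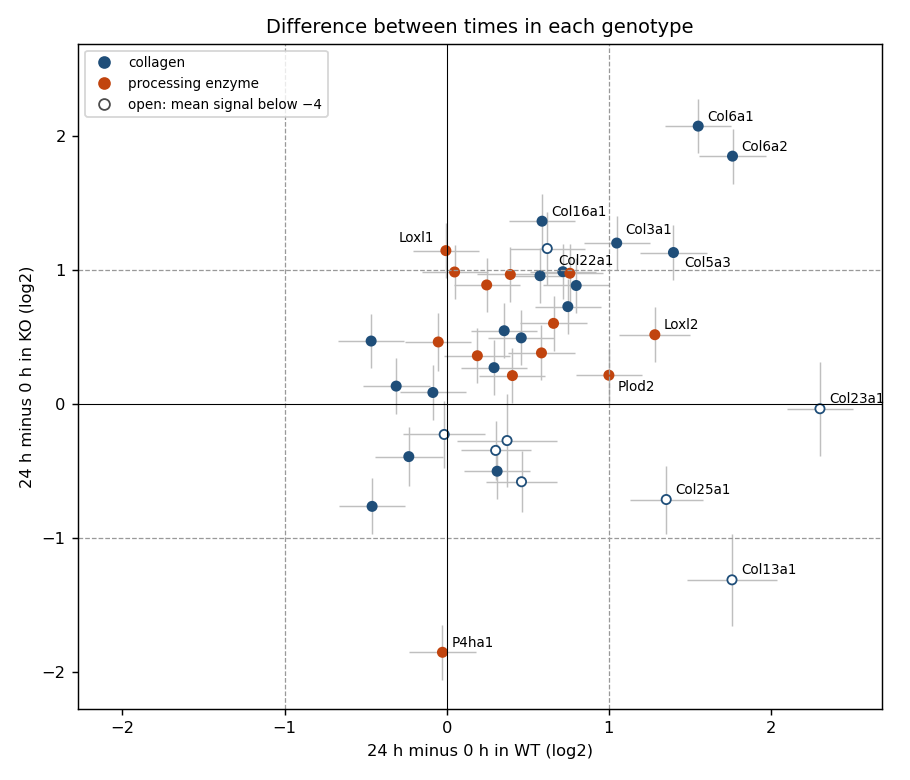
Difference between times (24 h minus 0 h, log2) in WT (horizontal axis) and KO (vertical axis) for the 39 members measured on all 4 arrays; bars are ±1 SE from spot error, dashed lines mark 2-fold, and open circles are members with a mean signal below -4. Col6a1 and Col6a2 lie highest at the upper right, P4ha1 lies lowest near 0 on the WT axis, and the dim Col13a1, Col25a1 and Col23a1 lie to the lower right.

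Subtracting the WT time difference from the KO time difference left 6 of 39 members at least 2-fold apart, 1 higher and 5 lower, with a median of 0.03. Over all genes 4.72% were higher and 13.3% lower (18.1% in either direction). With quantile normalization 2 members were higher and 4 lower. With fibroblast scaling none was higher and 10 were lower, with a median of -0.63, and Loxl1 then had 0.48. On the main scale Loxl1 was the higher one at 1.15, and P4ha1 (-1.82, SE 0.29) was the lower one among brighter members. The other 4 were the dim Col13a1 (-3.07), Col23a1 (-2.34), Col25a1 (-2.07) and Col11a2 (-1.04), and 43.6% of all dim genes were lower. Col6a1 and Col6a2 had values of 0.52 and 0.08, so their time difference was of like size in both genotypes.

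The other genes of the collagen pathway were read from lists that hold no member. Over all genes, 4.07% were at least 2-fold lower in KO and 9.33% higher at 0 h. At 24 h these shares were 12.3% and 5.76%. Of 19 measured helpers of synthesis in the endoplasmic reticulum, 1 was at least 2-fold lower in KO at each time and none was higher: P3h2, a prolyl 3-hydroxylase, read -2.63, -5.22, -1.80 and -4.66, a difference of -2.59 and -2.87. Serpinh1, the collagen chaperone HSP47, read 4.70, 4.52, 4.96 and 5.11, and P4hb, the partner subunit of the P4ha chains, read 3.92, 3.70, 4.60 and 4.20. None of the 10 genes of procollagen export reached 2-fold between genotypes. Of 6 measured propeptide proteases, Bmp1 (-1.09 at 0 h) and Adamts2, which removes N-propeptides (-1.13 and -1.28), were lower in KO, and Furin was higher at 24 h (1.21).

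Of the proteins that bind fibrils, 4 of 12 were at least 2-fold lower in KO at 0 h and 1 was higher, against 4.07% and 9.33% of all genes. At 24 h, 2 of 10 were lower and 1 higher, against 12.3% and 5.76%. A further 3, Aspn, Dpt and Abi3bp, were not well above background on KO 24 h. They were at least 4.60-fold, 6.92-fold and 7.89-fold lower there than on WT 24 h. For such genes, here and in the rest of this paragraph, no share over all genes was taken. KO 24 h had the lowest share of spots well above background (62.1%, against 67.3% on WT 24 h), so these counts are not read as a result about the lists. Ogn was lower by -3.09 and -4.02, and Postn was higher by 2.71 and 1.21. Dcn, the proteoglycan decorin, read 3.34, 1.86, 5.20 and 5.19, so the genotypes differed at 0 h (-1.47) and met at 24 h. Of 9 measured collagen receptors at 0 h, Ddr2 was lower (-1.10) and Lair1, an inhibitory receptor of leukocytes, was higher (1.20). At 24 h, 6 were measured, and Itgb1 was higher (1.16). A further 3 receptors were not well above background on KO 24 h and were at least 2-fold lower there than on WT 24 h. Among these were Itga1 (at least 4.25-fold) and Itga11 (at least 5.81-fold). Among collagen-degrading enzymes 3 of 11 were higher and 2 lower at 0 h, and 3 of 10 were higher and 2 lower at 24 h. Another was not well above background on KO 24 h and was at least 2-fold lower there than on WT 24 h. The collagenase Mmp13 was higher in KO by 2.93 and 3.09 and Mmp2 by 1.57 and 1.42, while Mmp14 was lower by -1.24 and -1.39.

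Where a called member had a further probe measured in the same comparison, that probe gave the same sign in 11 of 11 cases for KO minus WT at 0 h, 10 of 10 at 24 h, 7 of 7 over time in WT and 6 of 6 over time in KO. Each case is a probe, and some members gave several. Only the sign is compared: at 0 h a further probe gave -0.13 for Col16a1 and -0.14 for Col23a1. Col14a1, with probes of opposite sign at 0 h, is not counted there because its main probe was not measured on KO 0 h. Under every alternative that gave a value, 8 of 13 calls between genotypes were kept at 0 h and 10 of 16 at 24 h, against 6 of 13 and 3 of 10 for the calls over time in WT and KO. The value table and both changes of filter leave a member's value essentially unchanged, so they could not end a call. The stricter filter gave a value for only 6 of the 13 calls at 0 h and 4 of the 16 at 24 h. The 5 lost at 0 h were Col5a2, Col12a1, Col13a1, Col23a1 and P4ha3, and the 6 lost at 24 h were Col11a2, Col13a1, Col14a1, Col25a1, P4ha1 and P4ha3.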

How the data were processed

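RNA was read on 4 single-colour Agilent arrays (design 026655, probes placed on mm9 per the file headers). The deposited scanner files hold spot intensity, read from the scans by Agilent's Feature Extraction, version 12.1.1.1, per the submitters' processing notes. A second deposited table gives each signal as a ratio to the 75th percentile of its array and served as an alternative.

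Outlier-flagged and control spots were left out, the log2 processed signal minus the array's 75th percentile over non-control spots was taken, spots of a probe were averaged, and the probe with the highest mean linear signal stood for a gene. A gene was measured where well above background on both arrays, and 17110 genes were measured on all 4. With 1 array per group no test was made. Members, classes and gene lists were chosen with earlier results of these data known. Named in full are members at least 2-fold apart also with normexp, members with an at-least fold of 2 or more, fibrillar, type IV and type VI chains above background throughout, and every enzyme; up to 3 genes at each end of a pathway list are named, with Serpinh1, P4hb and Bmp1. Alternatives were quantile normalization, normexp (offset 50) with quantile normalization, the value table, no filter, a stricter filter, the mean of all probes, and scaling on 15 fibroblast genes; the probe with the highest mean log2 signal was added after the values were seen. The step that makes the 2-fold calls was checked on simulated arrays, with shifts larger than 2-fold and spot error as the only noise. It therefore checks the calling step only and does not cover variation in culture or labelling. Tools were R 4.3.3, limma 3.58.1, python 3.11.15, numpy 2.4.6, pandas 2.3.3 and matplotlib 3.10.9.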

Additional observations from a re-analysis of the deposited data

Results flagged for a closer look

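Col13a1, a dim transmembrane collagen, had differences of opposite sign in both directions of the design. From 0 h to 24 h its signal differed by 1.76 on the WT arrays and by -1.31 on the KO arrays, and the KO minus WT difference was 1.13 at 0 h and -1.94 at 24 h. The difference between these differences was not tested, since each group has 1 array. With normexp background correction none of the 4 values reached 2-fold.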

How the results depend on the processing

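With 1 array per group no array could be left out, and signal over background limits the dim chains most. No paired analysis was possible because each group has 1 array and no comparison has a test. The authors' value table left every count of members at its value. The mean of all probes changed each count by at most 1 (4 higher and 11 lower at 0 h, 15 lower at 24 h), and so did the probe with the highest mean log2 signal (13 lower at 24 h), an alternative chosen after seeing the data. Scaling on fibroblast genes gave medians of -0.21 (KO minus WT, 0 h), -1.04 (24 h), -0.32 (KO over time) and -0.63 (difference of time differences); it gave 5 members higher at 0 h, 2 higher and 10 lower over time in KO, and 0 higher and 10 lower in the difference of time differences. The median of all genes moved from 0.06 to 0.32, from -0.09 to -0.50, from 0.28 to 0.14 and from 0.23 to -0.58 in the 4 comparisons of array pairs on that scale. With no filter on dim probes the medians were -0.17 at 0 h and 0.21 over time in KO, and the counts were 10 higher at 0 h, 4 higher and 24 lower at 24 h, 7 lower over time in KO, and 3 higher and 18 lower in the difference of time differences. The type VI class median at 0 h then turned from -1.03 to 0.017, through chains near the floor. With the stricter filter the medians were -0.42 at 24 h and 0.92 over time in KO, and the counts were 1 higher and 5 lower at 0 h, 1 higher and 3 lower at 24 h, 4 higher and 0 lower over time in WT, 0 lower over time in KO and 0 lower in the difference of time differences; fewer members passed it. With normexp the medians were -0.40 at 24 h and 0.27 over time in WT, and the counts were 9 lower at 24 h, 6 higher and 0 lower over time in WT, 5 higher and 1 lower over time in KO, and 2 lower in the difference of time differences. Quantile normalization gave 1 lower over time in KO and 2 higher in the difference of time differences. Of all genes called, 69.6%, 31.9%, 73.9% and 46.4% were higher at 0 h, at 24 h, over time in WT and over time in KO, against 58.3%, 46.0%, 65.0% and 60.7% with quantile normalization. Apart from the filters and scalings named, the cause of these shifts was not tested.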
